A study of Rattus norvegicus with 12 samples.

Results

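Slc2a2, G6pc2, Ucn3, Slc30a8 and Syt4 are genes of glucose sensing and of the mature beta cell. These 5 genes were chosen by symbol, and 4 of them, Slc2a2, Ucn3, Slc30a8 and Syt4, were found among the 25888 symbols of the count table, each with 1 of its 30309 transcripts. G6pc2 was not analysed here. The RNA came from pancreatic islets of Sprague Dawley rats in 4 groups of 3 libraries. IUGR stands for intrauterine growth restriction: dams had both uterine arteries ligated at embryonic day 18, and their offspring were studied at 2 and at 10 weeks of age. The control groups were offspring of the same 2 ages from litters culled to 8 pups; the labels do not say whether their dams had sham surgery. The design text calls the 3 libraries of a group biological replicates. Pooling of animals, sex and litter are not given in the labels, so the p-values below measure the spread between these libraries.

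Glucose enters the rodent beta cell through the transporter GLUT2, the product of Slc2a2 and is phosphorylated there. The enzyme encoded by G6pc2 takes the phosphate off again, which bears on the glucose level at which insulin is released. Slc30a8 encodes ZnT8, which loads zinc into the granules where insulin crystallizes. Ucn3 encodes urocortin 3, a peptide released with insulin that acts on delta cells and is widely used as a marker of the mature beta cell. Syt4 encodes synaptotagmin 4, a granule protein that binds calcium poorly and has been tied to the high glucose threshold of secretion in mature beta cells. Slc30a8 is known from alpha cells as well.

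Promoter stretches are shown for the members with an entry in the RefSeq promoter table (build GRCr8), which matched 3 of the 4 measured genes, because all 3 rose with age in both conditions. Each line holds the 250 bases before the annotated start, 5′ to 3′, with matches to 4 motifs in capitals. The motifs, searched on both strands and chosen with these sequences in view, were TGCTGA (a MAF half-site), GTTAAT (an HNF1 half-site), TAATTA (a homeodomain site) and CAGATG (a NEUROD1 E-box). GTTAAT and TAATTA can overlap. Slc2a2 lies at chr2:113540120-113540369 on the plus strand, Ucn3 at chr17:71219406-71219655 on the plus strand and Syt4 at chr18:23320864-23321113 on the minus strand.
Slc2a2: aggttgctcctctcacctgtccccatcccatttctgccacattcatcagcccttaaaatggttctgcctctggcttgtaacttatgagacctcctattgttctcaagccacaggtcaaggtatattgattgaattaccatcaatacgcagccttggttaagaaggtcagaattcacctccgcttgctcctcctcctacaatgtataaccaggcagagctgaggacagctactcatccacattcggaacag
Ucn3: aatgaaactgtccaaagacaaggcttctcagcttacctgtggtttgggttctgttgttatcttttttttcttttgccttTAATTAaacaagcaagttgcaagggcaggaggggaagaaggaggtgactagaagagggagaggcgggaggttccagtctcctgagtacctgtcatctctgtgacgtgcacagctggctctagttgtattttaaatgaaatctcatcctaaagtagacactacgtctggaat
Syt4: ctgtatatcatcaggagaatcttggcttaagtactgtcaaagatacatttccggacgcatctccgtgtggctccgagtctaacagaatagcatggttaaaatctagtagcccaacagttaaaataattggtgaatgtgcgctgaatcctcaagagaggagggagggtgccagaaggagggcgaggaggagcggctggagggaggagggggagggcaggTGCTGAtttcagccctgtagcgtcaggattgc

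The Syt4 stretch held 1 match, TGCTGA, at 32 to 27 bases before the start. The Ucn3 stretch held 1 match, TAATTA, at 171 to 166 bases before the start. The Slc2a2 stretch held 0 matches to these letters. Among all 33469 promoters of the table, TGCTGA was found in 15.1%, GTTAAT in 6.45%, TAATTA in 4.86% and CAGATG in 14.0% of stretches of the same length. A match describes letters and not a bound site.

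Library totals ran from 30396759 to 64201627 counts. They differed in acinar RNA, from the enzyme-making cells around the islets: 36 of 36 listed acinar genes were found, none at 0 in any group, and together they took 21.7% to 42.4% of counts in 2-week controls, 4.38% to 9.39% in 2-week IUGR libraries, 14.0% to 47.5% in 10-week controls and 0.625% to 2.33% in 10-week IUGR libraries. All 8 listed beta cell markers and all 8 alpha cell markers had counts in every group. The beta cell markers summed to 21700 to 38100 CPM in 2-week controls and 33500 to 37900 in 2-week IUGR libraries. At 10 weeks they summed to 93100 to 140000 in controls and 174000 to 189000 in IUGR libraries. CPM, the usual counts-per-million measure, are scaled here and below with TMM factors, which correct for unequal composition of libraries, unless another scale is named. In islet RNA, fewer cells of a type and less RNA per cell cannot be told apart.

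Slc2a2, the glucose transporter, was low at 2 weeks and high at 10. Its CPM in replicates 1 to 3 were 131, 142 and 203 in 2-week controls and 180, 188 and 228 in 2-week IUGR islets. At 10 weeks they were 971, 693 and 806 in controls and 1410, 1600 and 1940 in IUGR islets. The groups overlapped at 2 weeks, and above them the 10-week controls and then the 10-week IUGR libraries stood apart. The means were 159 ± 38.6, 199 ± 26.0, 823 ± 140 and 1650 ± 271 CPM (SD, n = 3 each) in the order given.

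Syt4 had the same order. It stood at 14.3, 15.5 and 23.5 CPM in 2-week controls and at 33.7, 25.6 and 24.6 CPM in 2-week IUGR islets. At 10 weeks it stood at 160, 122 and 108 CPM in controls and at 214, 296 and 264 CPM in IUGR islets. No neighbouring groups overlapped, although the highest 2-week control lay close to the lowest 2-week IUGR library. The means were 17.8 ± 5.03, 27.9 ± 4.99, 130 ± 27.1 and 258 ± 41.3 CPM (SD, n = 3 each).

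Slc30a8 moved over a narrower range. Its CPM were 133, 140 and 218 in 2-week controls, 215, 180 and 185 in 2-week IUGR islets, 429, 352 and 293 in 10-week controls and 638, 609 and 557 in 10-week IUGR islets. The 2-week groups overlapped and the 10-week groups did not. The means were 164 ± 46.9, 193 ± 18.9, 358 ± 68.5 and 601 ± 40.9 CPM (SD, n = 3 each).

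Ucn3, the maturity marker, stood at 17.9, 23.0 and 31.3 CPM in 2-week controls and at 21.9, 23.3 and 26.4 CPM in 2-week IUGR islets. At 10 weeks it stood at 83.0, 59.0 and 50.7 CPM in controls and at 117, 94.2 and 98.0 CPM in IUGR islets. The 2-week IUGR values lay inside the range of the 2-week controls. The means were 24.1 ± 6.76, 23.8 ± 2.28, 64.2 ± 16.8 and 103 ± 12.5 CPM (SD, n = 3 each).

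**Figure D1:**
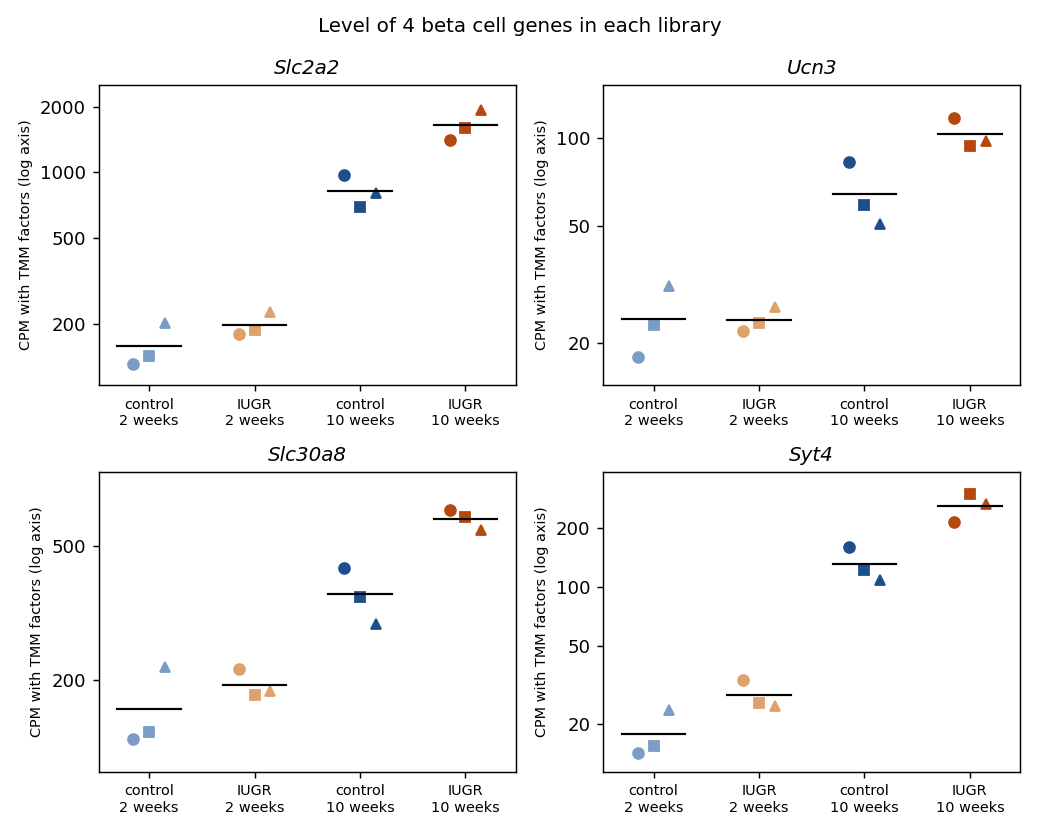
CPM with TMM factors (log axis) of Slc2a2, Ucn3, Slc30a8 and Syt4 in the 12 libraries, with circles, squares and triangles for replicates 1, 2 and 3 and a line at each group mean. On this scale the 10-week IUGR libraries are highest for each gene, and the 2-week groups overlap for all but Syt4; relative to insulin counts Ucn3 and Slc30a8 run the other way with age.

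With age, all 4 genes rose in control islets on the scaled CPM, although Ucn3 and Slc30a8 were lower relative to insulin counts (below). From 2 to 10 weeks Syt4 rose 7.30-fold (log2 fold change 2.87 ± 0.23, with ± as the standard error for fold changes, adjusted p = 7.57e-05). Slc2a2 rose 5.18-fold (2.37 ± 0.22, adjusted p = 9.39e-05), Ucn3 2.67-fold (1.42 ± 0.22, adjusted p = 0.00096) and Slc30a8 2.18-fold (1.13 ± 0.20, adjusted p = 0.00203). A gene passed at an adjusted p under 0.05 in edgeR's quasi-likelihood test over 20733 transcripts, of which 17.2% passed as higher and 15.1% as lower in this comparison. The members' fold changes lay at the 93.1 to 99.1 percentile of all transcripts tested.

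The same genes rose with age in IUGR islets on this scale. Relative to insulin counts Slc30a8 was lower there too, while for Ucn3 the 2 ages overlapped. Syt4 rose 9.23-fold (3.21 ± 0.24, adjusted p = 3.47e-06) and Slc2a2 8.31-fold (3.05 ± 0.22, adjusted p = 3.38e-06). Ucn3 rose 4.33-fold (2.11 ± 0.22, adjusted p = 2.3e-05) and Slc30a8 3.11-fold (1.64 ± 0.20, adjusted p = 6.1e-05). Of all transcripts 27.3% passed as higher and 29.2% as lower. In both conditions the order of the fold changes was Syt4, Slc2a2, Ucn3, Slc30a8. The age effects in IUGR and control islets differed by log2 0.68 ± 0.29 for Slc2a2 (adjusted p = 0.137), 0.70 ± 0.30 for Ucn3 (adjusted p = 0.142), 0.51 ± 0.28 for Slc30a8 (adjusted p = 0.234) and 0.34 ± 0.31 for Syt4 (adjusted p = 0.495), and 0 of 4 passed. For all transcripts 3.97% passed as higher and 10.4% as lower in this test, which is also that of the difference between the IUGR effects at both ages. Slc2a2 and Ucn3 had an unadjusted p of 0.0387 and 0.0404 in edgeR, and DESeq2 also passed 0 of 4. Without 10-week control replicate 1, Ucn3 passed (1.02 ± 0.28, adjusted p = 0.0253).

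At 10 weeks all 4 genes were higher in IUGR than in control islets on the scaled CPM, while relative to insulin counts the groups overlapped. Slc2a2 stood 2.00-fold higher (log2 fold change 1.0 ± 0.21, adjusted p = 0.00683) and Syt4 1.99-fold (0.99 ± 0.22, adjusted p = 0.00899). Slc30a8 was 1.68-fold higher (0.75 ± 0.20, adjusted p = 0.0183) and Ucn3 1.61-fold (0.68 ± 0.21, adjusted p = 0.0351). Of all transcripts 12.4% passed as higher and 15.5% as lower. The 3 IUGR libraries lay above the 3 controls for each gene. This comparison shares its control libraries with that of age in controls.

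The 10-week calls differed in how they held. Those of Slc2a2 and Syt4 held in 21 of 22 other settings each, that of Slc30a8 in 18 and that of Ucn3 in 13. A looser threshold of 0.1 is among these 22, and no call can be lost by it. With a covariate for the acinar RNA of each library none of the 4 passed, although the fold changes stayed above 0: 1.04 ± 0.54 for Slc2a2 (adjusted p = 0.229), 0.82 ± 0.57 for Syt4 (adjusted p = 0.367), 0.59 ± 0.57 for Ucn3 (adjusted p = 0.515) and 0.57 ± 0.51 for Slc30a8 (adjusted p = 0.478). The standard errors were larger in that fit, in which the acinar level and the group vary together. Without both 10-week controls rich in acinar RNA, Slc2a2 and Syt4 passed, while Ucn3 (0.83 ± 0.27, adjusted p = 0.0590) and Slc30a8 (0.80 ± 0.28, adjusted p = 0.0693) did not. Ucn3 also lost its call without 10-week control replicate 2 (0.64) or 3 (0.54), without any 1 of the 10-week IUGR replicates (0.58 to 0.75), without 2-week IUGR replicate 2 (adjusted p = 0.0504) and in a fit of the 6 libraries alone (adjusted p = 0.0536). Slc30a8 lost its call without 10-week control replicate 3 (0.63, adjusted p = 0.0745) or IUGR replicate 1 (0.71, adjusted p = 0.0554).

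At 2 weeks 0 of 4 genes passed between IUGR and control islets on the scaled CPM. In this comparison 1.66% of transcripts passed as higher and 2.21% as lower. The log2 fold changes were 0.65 ± 0.22 for Syt4 (adjusted p = 0.0958), 0.32 ± 0.21 for Slc2a2 (adjusted p = 0.317), 0.24 ± 0.20 for Slc30a8 (adjusted p = 0.442) and -0.02 ± 0.21 for Ucn3 (adjusted p = 0.972). Syt4 was the only one of the 4 with an unadjusted p under 0.05 in edgeR (0.013). It passed with DESeq2 (0.67 ± 0.23, adjusted p = 0.0344) and without 2-week control replicate 3 (0.91 ± 0.21, adjusted p = 0.0308). The other 3 passed in none of the settings tried.

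**Figure D2:**
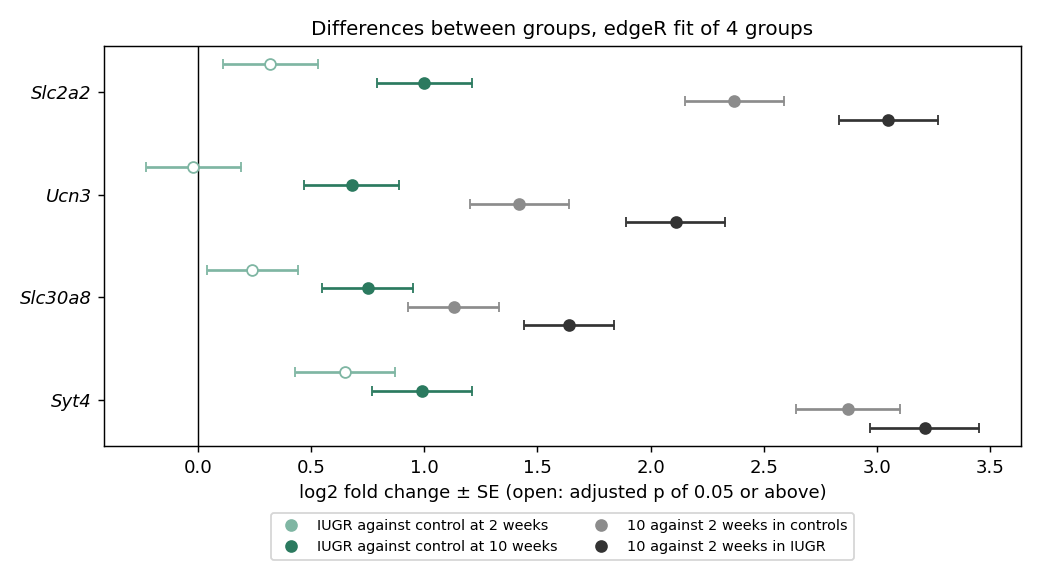
Log2 fold changes with standard errors of the 4 genes in 4 comparisons from the edgeR fit of 4 groups on TMM-scaled counts, open where the adjusted p was 0.05 or above. The age effects run from 1.13 to 3.21 and the 10-week IUGR effects from 0.68 to 1.0; at 2 weeks no gene passed, and relative to insulin counts the age effects of Ucn3 and Slc30a8 run the other way.

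The size of these differences depended on what the counts were set against. In CPM of plain library totals, the mean of Slc2a2 at 10 weeks was 3.68-fold higher in IUGR than in control islets, against 2.00-fold with TMM factors and 2.47-fold in CPM of the counts outside the acinar list. Set against the counts of Ins1 and Ins2 in the same library, the ratio of the means was 1.21. For Syt4 the ratios on the same 4 scales were 3.53, 1.98, 2.42 and 1.21. For Slc30a8 they were 2.95, 1.68, 2.04 and 1.02, and for Ucn3 2.87, 1.60, 1.97 and 0.983. On the insulin scale the 10-week groups overlapped for all 4 genes, while on the other scales they stood apart for all 4. With age in controls, Slc2a2 and Syt4 stood apart on all 4 scales, at 3.17-fold, 5.19-fold, 3.47-fold and 1.34-fold for Slc2a2 and at 4.60-fold, 7.32-fold, 4.96-fold and 1.89-fold for Syt4. For Ucn3 the ratios were 1.66, 2.67, 1.81 and 0.685 and for Slc30a8 1.39, 2.19, 1.49 and 0.566: the age groups of both overlapped on plain totals and outside the acinar list, and on the insulin scale the older controls were lower.

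**Figure D3:**
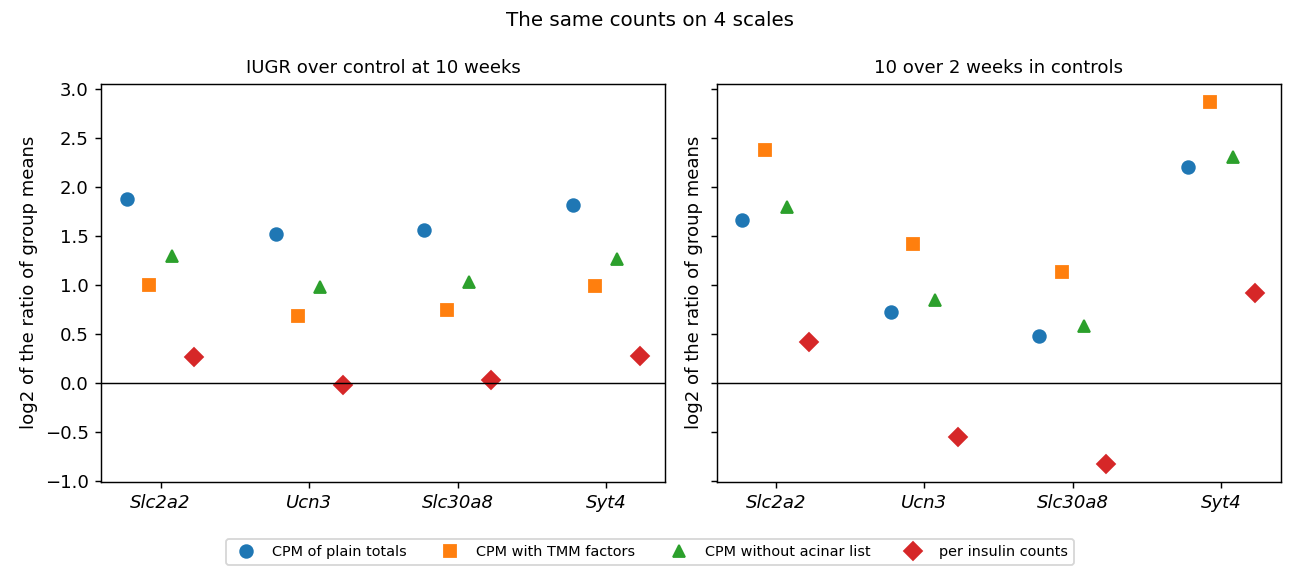
Log2 of the ratio of group means of the 4 genes on 4 scales, for IUGR over control at 10 weeks and for 10 over 2 weeks in controls. Set against insulin counts, the IUGR ratios lie between -0.02 and 0.28, and the age ratios of Ucn3 (-0.55) and Slc30a8 (-0.82) change sign while those of Slc2a2 (0.42) and Syt4 (0.92) do not.

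A ratio of 2 genes within a library does not depend on the library total or on RNA of cells that express neither. Such ratios were therefore compared, a choice made after the counts had been seen. Insulin counts are those of Ins1 and Ins2 together, which rose with age themselves in the edgeR fit: in controls Ins1 rose by 1.96 ± 0.39 (adjusted p = 0.0040) and Ins2 by 1.94 ± 0.36 (adjusted p = 0.00272) on the log2 scale. Differences were tested by exact permutation of the libraries within age or within condition (two-sided, 400 regroupings, smallest possible p = 0.005), with p-values adjusted over the 30 tests made. Each p belongs to the mean of the differences in both conditions, or at both ages, and neither was tested alone. Fewer regroupings are possible when a library is left out.

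Relative to insulin, Slc30a8 was lower at 10 weeks. Per 1000 insulin counts it had 6.56, 6.20 and 6.12 counts in 2-week controls, 6.71, 5.72 and 5.22 in 2-week IUGR islets, 3.35, 3.87 and 3.46 in 10-week controls and 3.78, 3.85 and 3.27 in 10-week IUGR islets. The 6 older libraries all lay below the 6 younger ones, and conditions overlapped at each age. The log2 ratio fell by 0.82 in controls and by 0.69 in IUGR islets (exact permutation p = 0.005, adjusted p = 0.01 for their mean). The alpha cell markers, of interest because alpha cells also express Slc30a8, summed to 11600 to 25500 CPM in 2-week and 5150 to 8830 in 10-week controls, and to 18900 to 34100 and 6170 to 15000 CPM in IUGR islets, and their part in this ratio was not tested.

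Ucn3 relative to insulin was lower with age too. It had 0.881, 1.01 and 0.880 counts per 1000 insulin counts in 2-week controls and 0.684, 0.741 and 0.743 in 2-week IUGR islets. At 10 weeks it had 0.648, 0.649 and 0.600 in controls and 0.695, 0.596 and 0.574 in IUGR islets. The 2-week controls stood above all other libraries, while the IUGR libraries of both ages overlapped. The log2 difference with age was -0.55 in controls and -0.22 in IUGR islets. Their mean was -0.38 (exact permutation p = 0.01, adjusted p = 0.0176).

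Slc2a2 and Syt4 went the other way. Slc2a2 had 6.46, 6.29 and 5.70 counts per 1000 insulin counts in 2-week controls, 5.63, 5.97 and 6.44 in 2-week IUGR islets, 7.58, 7.63 and 9.53 in 10-week controls and 8.33, 10.1 and 11.4 in 10-week IUGR islets. Syt4 had 0.701, 0.684 and 0.661 in 2-week controls, 1.05, 0.815 and 0.693 in 2-week IUGR islets, 1.25, 1.34 and 1.27 in 10-week controls and 1.27, 1.87 and 1.54 in 10-week IUGR islets. For both genes all 6 older libraries lay above all 6 younger ones. With age the log2 ratio of Slc2a2 was higher by 0.42 in controls and 0.72 in IUGR islets, and that of Syt4 by 0.92 and 0.88. The mean over both conditions had an exact permutation p = 0.005 and adjusted p = 0.01 for each gene.

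Between conditions none of the 4 ratios to insulin passed. Over both ages the mean log2 difference of IUGR from control was 0.12 for Slc2a2 (adjusted p = 0.312 by exact permutation), 0.28 for Syt4 (adjusted p = 0.0545), -0.04 for Slc30a8 (adjusted p = 0.620) and -0.19 for Ucn3 (adjusted p = 0.0545). For Ucn3 and Syt4 the call depended on single libraries: Ucn3 passed without 10-week control replicate 3 (-0.21, adjusted p = 0.0429) or IUGR replicate 1 (-0.23, adjusted p = 0.0143), and Syt4 without 2-week IUGR replicate 3 (0.35, adjusted p = 0.0281) or 10-week IUGR replicate 1 (0.35, adjusted p = 0.0143).

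**Figure D4:**
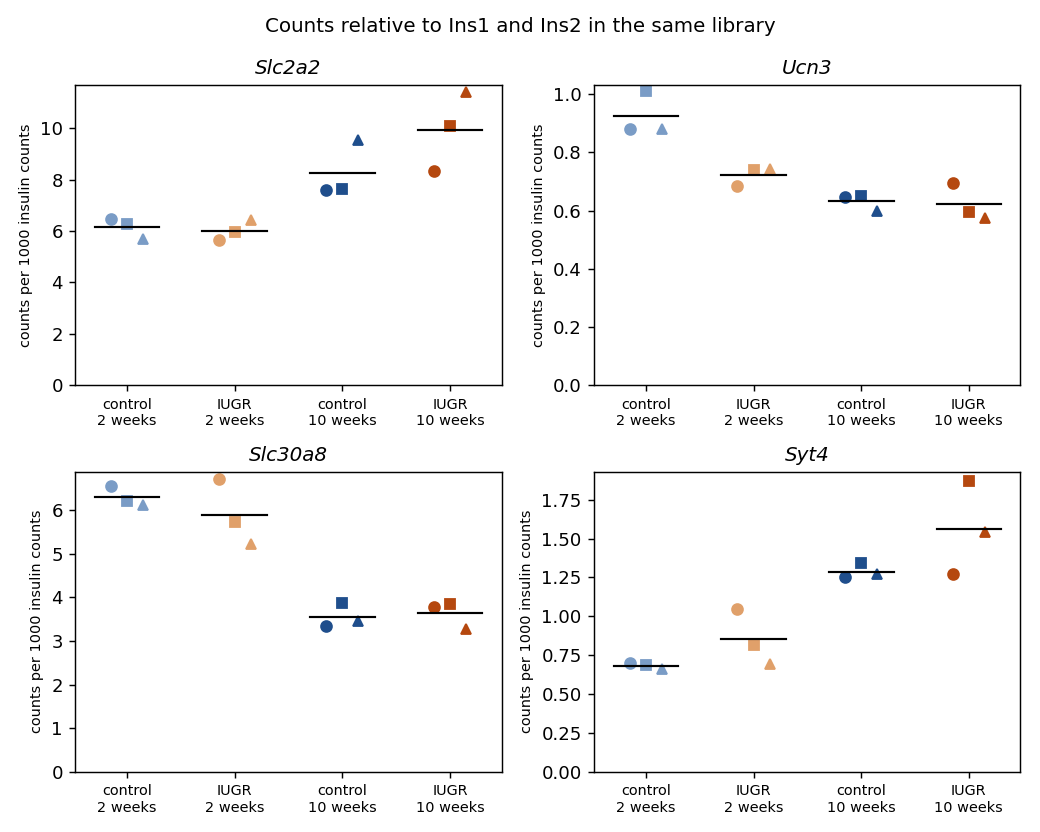
Counts of each gene per 1000 counts of Ins1 and Ins2 in the same library, from 0, with circles, squares and triangles for replicates 1, 2 and 3 and a line at each group mean. With age Slc30a8 is lower (from 5.22 to 6.71 down to 3.27 to 3.87) and Slc2a2 and Syt4 are higher in every library, while CPM of all 4 genes were higher at 10 weeks.

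Set against 11 beta cell transcription factors (the geometric mean of their counts, among them Pdx1, Mafa and Nkx6-1), all 4 genes were higher at 10 than at 2 weeks. The log2 differences were 1.77 in controls and 1.97 in IUGR islets for Slc2a2, 2.26 and 2.13 for Syt4, 0.80 and 1.03 for Ucn3, and 0.52 and 0.56 for Slc30a8. For each gene the mean over both conditions had an exact permutation p = 0.005 and adjusted p = 0.01. Insulin counts on this reference were higher by 1.35 and 1.26 with age, and higher in IUGR than in control islets by 0.29 at 2 and 0.19 at 10 weeks (mean 0.24, exact permutation adjusted p = 0.01), so a ratio to insulin is set against counts that differed between conditions too. Between conditions Syt4 passed with a mean difference of 0.52 over both ages (exact permutation adjusted p = 0.01) and Slc2a2 with 0.36 (adjusted p = 0.0176). Without both 10-week controls rich in acinar RNA the mean difference of Syt4 was 0.49. Too few 10-week controls are left in that setting to give a p-value, so the effect size alone is given and the call is not judged there. Slc2a2 lost its call without 10-week control replicate 2 (0.33, adjusted p = 0.0529). Slc30a8 (0.20, adjusted p = 0.0545) and Ucn3 (0.05, adjusted p = 0.579) did not pass, but Slc30a8 did without 2-week control replicate 3 (0.24, adjusted p = 0.0333) or 2-week IUGR replicate 3 (0.24, adjusted p = 0.0429). The fall of Slc30a8 and Ucn3 with age thus appeared against insulin and not against these factors.

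Ratios between members compare them directly, each with another member as its reference. In the 2-week controls the count of Slc30a8 was 9.36, 9.07 and 9.26 times that of Syt4, although acinar RNA in these libraries ran from 21.7% to 42.4%. In 2-week IUGR islets the ratio was 6.38, 7.02 and 7.54, in 10-week controls 2.68, 2.89 and 2.72, and in 10-week IUGR islets 2.98, 2.06 and 2.11. The log2 ratio of Slc30a8 over Syt4 fell with age by 1.74 in controls and by 1.57 in IUGR islets (exact permutation p = 0.005, adjusted p = 0.01 for their mean). Over both ages it was lower in IUGR islets by a mean log2 difference of -0.32 (exact permutation p = 0.02, adjusted p = 0.0316), and that of Ucn3 over Syt4 by -0.47 (the same p and adjusted p). Both calls were lost with some libraries left out: Slc30a8 over Syt4 without 2-week control replicate 2 (adjusted p = 0.05) or 10-week control replicate 1 (0.05) or 2 (0.0553) or 10-week IUGR replicate 2 (0.0583) or 3 (0.0553), and Ucn3 over Syt4 without any 1 of 8 libraries (adjusted p = 0.0525 to 0.0789), namely any 2-week control, 2-week IUGR replicate 1, 10-week control replicate 1 or 2 and 10-week IUGR replicate 2 or 3. Without both acinar-rich 10-week controls, where too few are left to give a p-value, the mean log2 difference was -0.35 for Slc30a8 over Syt4 and -0.46 for Ucn3 over Syt4.

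Slc2a2 and Slc30a8, whose counts were nearly equal in 2-week controls (ratios 0.985, 1.01 and 0.932), parted with age. The ratio of Slc2a2 over Slc30a8 was 0.838, 1.04 and 1.23 in 2-week IUGR islets, 2.26, 1.97 and 2.76 in 10-week controls and 2.21, 2.63 and 3.48 in 10-week IUGR islets. The ratio of Ucn3 over Slc30a8 was higher with age as well, by a mean log2 difference of 0.37 (exact permutation adjusted p = 0.01). The log2 ratio of Slc2a2 over Slc30a8 rose by 1.24 in controls and 1.41 in IUGR islets (exact permutation p = 0.005, adjusted p = 0.01 for their mean). Between conditions this ratio did not differ beyond the spread (mean 0.16, exact permutation adjusted p = 0.322). Slc2a2 over Syt4 was the only one of the 6 pairs that did not pass with age, at -0.50 in controls and -0.16 in IUGR islets (exact permutation adjusted p = 0.10 for their mean). It passed without 2-week IUGR replicate 1 (mean -0.43, adjusted p = 0.025). Counts are not scaled by transcript length, so these ratios compare libraries and not the levels of different genes.

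**Figure D5:**
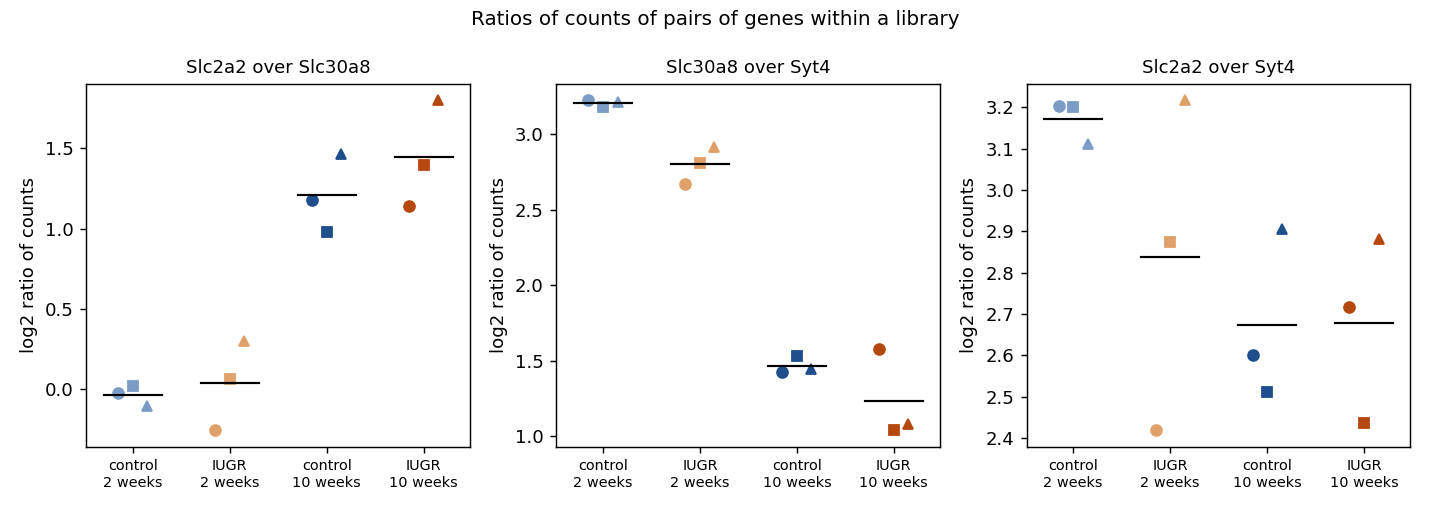
Log2 ratio of the counts of 3 pairs of genes in each library, with circles, squares and triangles for replicates 1, 2 and 3 and a line at each group mean; the axes do not start at 0 and differ between panels. Slc2a2 over Slc30a8 is higher and Slc30a8 over Syt4 is lower in all 6 older libraries, while Slc2a2 over Syt4 overlaps between ages.

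Among the genes of glucose entry and phosphorylation, 10 of 11 listed were tested beside the members. At 10 weeks 4 were higher and 3 lower in IUGR islets (median log2 fold change 0.08, against -0.01 over all transcripts). Of all transcripts 12.4% were higher and 15.5% lower in this comparison. Slc37a4, the glucose-6-phosphate transporter of the endoplasmic reticulum, was higher (0.59 ± 0.15, adjusted p = 0.0159). Hk1, a hexokinase of high glucose affinity found in most cell types, was lower (-1.43 ± 0.18, adjusted p = 0.00099), and so were Hk2 and Pfkfb3. Markers of some other cell types were lower in the same comparison, at 34 of 35 acinar (median -5.77), 9 of 12 endothelial (median -0.95) and 8 of 11 mesenchymal genes (median -1.52). Lower too were 4 of 10 macrophage, 2 of 14 ductal and 5 of 11 neuron and Schwann cell genes, with 1 of these 11 higher. Of 8 alpha cell and 3 PP cell markers 1 each was higher and none lower. Of 5 delta cell markers 1 was higher and 1 lower. The part of these cell types in the lower values here and in the families below was not tested. At 2 weeks 0 of 10 passed in edgeR, against 1.66% of all transcripts higher and 2.21% lower. From 2 to 10 weeks Slc37a4 rose by 0.77 ± 0.15 in controls (adjusted p = 0.00331) and by 1.49 ± 0.15 in IUGR islets (adjusted p = 2e-05). Over the list 3 rose and 1 fell with age in controls, and 4 rose and 4 fell in IUGR islets. Over all transcripts 17.2% rose and 15.1% fell in controls and 27.3% and 29.2% in IUGR islets.

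Of 15 genes of mitochondrial coupling and of the KATP channel, the potassium channel closed by ATP, 7 rose and none fell with age in controls (median 0.34). In IUGR islets 9 rose and 2 fell (median 0.46), against a median of 0 over all transcripts in both conditions. Among all transcripts 17.2% rose and 15.1% fell in controls, and 27.3% and 29.2% in IUGR islets. Mdh1, a cytosolic malate dehydrogenase, rose most clearly (1.85 ± 0.16 in controls, adjusted p = 8.18e-05), followed by Pc, pyruvate carboxylase (1.26 ± 0.11, adjusted p = 8.6e-05). Kcnj11, the pore of the KATP channel, rose by 0.70 ± 0.23 in controls (adjusted p = 0.0360) and 0.93 ± 0.23 in IUGR islets (adjusted p = 0.00462). Abcc8, also of this channel, did not pass in controls (0.12 ± 0.19, adjusted p = 0.657) and rose by 0.50 ± 0.19 in IUGR islets (adjusted p = 0.0408). At 10 weeks 5 of the 15 were higher in IUGR islets and none lower (median 0.35), led by Mdh1 (0.87 ± 0.15, adjusted p = 0.00357). The shares of all transcripts were 12.4% higher and 15.5% lower. Kcnj11 (adjusted p = 0.0642) and Abcc8 (adjusted p = 0.0791) did not pass in this comparison.

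Relatives of the members were counted in the same way. Of 10 other members of the Slc2a family, not all of which carry mainly glucose, 1 was higher and 4 lower in IUGR islets at 10 weeks (median -0.43). The shares of all transcripts were 12.4% higher and 15.5% lower. The fructose transporter Slc2a5 was higher (1.61 ± 0.30, adjusted p = 0.00479) and Slc2a10 lower (-2.69 ± 0.34, adjusted p = 0.00106). Of 8 other zinc exporters tested, 2 were higher and 1 lower at 10 weeks (median 0.05), against the same shares of all transcripts. Slc30a9 (0.53 ± 0.10, adjusted p = 0.00451) and Slc30a5 were higher, and Slc30a2 was lower (-4.46 ± 0.92, adjusted p = 0.00698). The mean CPM of Slc30a2 were 15.6 in 2-week controls, 2.97 in 2-week IUGR islets, 5.43 in 10-week controls and 0.241 in 10-week IUGR islets, higher in controls at each age as the acinar share of counts was. With age 2 of the 8 zinc exporters rose in controls, against 17.2% of all transcripts, and 4 rose and 1 fell in IUGR islets, against 27.3% and 29.2%.

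Of 14 other synaptotagmins tested, 8 rose and 1 fell with age in controls (median 0.62), and 8 rose and 2 fell in IUGR islets (median 0.96). The shares of all transcripts were 17.2% higher and 15.1% lower in controls, and 27.3% and 29.2% in IUGR islets. Syt13 rose by 1.65 ± 0.22 in controls (adjusted p = 0.000494) and Syt5 by 1.59 ± 0.20 (adjusted p = 0.000372), both less than Syt4. Syt7, a calcium sensor of insulin release, rose by 1.05 ± 0.19 (adjusted p = 0.00225), from 26.4 ± 6.70 to 54.5 ± 11.2 CPM (SD, n = 3 each). At 10 weeks 2 of the 14 were higher and 2 lower in IUGR islets (median 0.37), near the 12.4% and 15.5% of all transcripts. At 2 weeks Syt11 alone passed (0.73 ± 0.15, adjusted p = 0.0431), against 1.66% of all transcripts higher and 2.21% lower. In the family of Ucn3, Crhr2, a urocortin receptor, was the only one of 6 genes with enough counts to test. Its mean CPM lay between 0.615 and 0.840 in the 4 groups, and it passed in none of the comparisons.

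The members can be set beside other maturity genes. Of 15 genes of the mature beta cell tested, 11 rose and 1 fell with age in controls (median 1.35), and 14 rose and 1 fell in IUGR islets (median 2.00). Among all transcripts 17.2% rose and 15.1% fell in controls, and 27.3% and 29.2% in IUGR islets. The prolactin receptor Prlr rose by 3.17 ± 0.18 in controls (adjusted p = 9.72e-06), and Mafa, a transcription factor of the adult beta cell, by 1.83 ± 0.24 (adjusted p = 0.000415). The gene that fell was Rbp4, which delta cells also express (-1.35 ± 0.26, adjusted p = 0.00311; named after its value was seen). Of 12 genes of the immature beta cell, none rose in either condition. In controls 8 fell, against 15.1% of all transcripts, and in IUGR islets 9 fell, against 29.2%. The genes that fell included Dlk1 (-3.46 ± 0.41 in controls, adjusted p = 0.000298). Several of these, such as Pdgfra and Vim, are also expressed in mesenchymal cells. The mesenchymal marker list (11 of 12 found, none at 0 in any group) summed to 5430 to 9480 CPM in 2-week and 1370 to 2620 in 10-week controls, and to 11100 to 13100 and 669 to 868 CPM in IUGR islets of these ages, and its part in the result was not tested.

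Over the 12 libraries, the log2 CPM of the 4 members had pairwise Pearson r from 0.966 to 0.988. The genes most like Slc2a2, among 11694 symbols, were Iapp (r = 0.995), Vipr2 (0.995) and Mdh1 (0.994). For Ucn3 they were Tmem180 (0.994), Abat (0.994) and Map2 (0.993), for Slc30a8 Zcchc16 (0.996), Elavl4 (0.996) and Ddx25 (0.995), and for Syt4 Acsl6 (0.994), Kcnma1 (0.993) and Ptprj (0.992). The libraries share groups, ages and acinar content, so these values describe these libraries and are given with no test. Iapp, the amylin gene, is a beta cell product packed with insulin.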

How the data were processed

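RNA of pancreatic islets was counted in 12 libraries, 3 for each condition and age. The values are counts for Ensembl rat transcripts, as deposited and not normalized. Per the labels' protocols, the kit was a stranded one with ribosomal RNA removal, and an RNA integrity number over 7 was required. Tools listed in the submitters' processing notes are TopHat2 2.0.9 and bedtools, with rn5 and mm9 as builds and no roles given. How reads were counted, and whether by strand, is not given in the sources used, so overlapping genes may share counts.

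Per symbol the transcript with the highest mean count was used. The quasi-likelihood F test of edgeR 4.0.16 (R 4.3.3) was fitted once over the 4 groups, robustly, after filterByExpr and with TMM factors. Its p-values were adjusted by Benjamini-Hochberg over all tested transcripts, and standard errors were derived by dividing the size of the log2 fold change by the root of F. The steps were tested on simulated data. Ratios within libraries used the counts as deposited.

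The members and lists were chosen with earlier results of these data known. In lists, counts of all members tested are given and up to 4 genes with the smallest p in the comparison described are named, with Mafa, Ins1 and Ins2 named whether or not they passed and genes needed to say what a list holds. Values of some listed genes are not reported here. The genes most like a member are the 3 with the highest Pearson r of log2 CPM (prior count 2), among symbols with a mean log2 CPM of at least 1. Other settings were DESeq2 1.42.0, edgeR with RLE factors, keeping low counts, a threshold of 0.1, a block for the replicate number, an acinar covariate, removal of the acinar list and of the 20 most abundant transcripts, a fit of the compared libraries alone, 1 transcript per symbol, both 10-week controls with an acinar share above 40% left out (the remaining library was assumed to vary like the other groups), and each library left out in turn. Ratios were added after the data had been seen.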

Additional observations from a re-analysis of the deposited data

How the results depend on the processing

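The calls of the 4 genes with age held in all 22 other settings in both conditions, with log2 fold changes from 0.96 to 3.12 in controls and from 1.57 to 3.36 in IUGR islets. Among the 22 is the looser threshold of 0.1, by which no call can be lost. At 10 weeks the number of genes called between conditions was 4, 0 with the acinar covariate, 2 without both 10-week controls rich in acinar RNA, and 2 to 4 with a library left out. At 2 weeks it was 0, 1 with DESeq2 or an adjusted p under 0.1, and 0 to 1 with a library left out. For the difference between ages it was 0, and 0 to 1 with a library left out. No fold change that passed changed its sign. Where a call was lost, the cause was not tested.

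Over all transcripts at 2 weeks 804 passed in edgeR (42.9% higher), and 149 with no filter, 1807 without both acinar-rich 10-week controls, 3021 at an adjusted p under 0.1 and 3212 with DESeq2 (55.7% higher). Of those called, 52.9% were higher with the acinar list and most abundant transcripts left out. With the acinar covariate 0 passed (2621 at an unadjusted p under 0.05), with the 6 libraries of the comparison fitted alone 0 (6239), and with a library left out 0 to 2350: 0 without IUGR replicate 1 (3839) or 3 (4681) of that age, 9 without IUGR replicate 2, 17 and 5 without control replicate 1 and 2, 92 to 285 without 10-week control replicate 3 or any 10-week IUGR library, 1804 without 10-week control replicate 2 and 2350 without 2-week control replicate 3. At 10 weeks 5776 passed, 1779 with the covariate (26.4% higher against 44.5%), 3472 in its 6 libraries, and 2971 (without control replicate 3) to 7021 with a library left out, with 3785 without IUGR replicate 1. For the difference between ages 2973 passed, 4627 with the covariate, 4735 at an adjusted p under 0.1, and 1759 (without 2-week IUGR replicate 2) to 4983 (without 10-week control replicate 1) with a library left out, with 1819 without 2-week IUGR replicate 1 and 1943 without 10-week control replicate 3. With age in controls 6693 passed, 3690 without both acinar-rich controls and 3448 in its 6 libraries. The difference between ages was not fitted in fewer than 4 groups.

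With the replicate number as a block, the replicate block fit passed 1223 transcripts at 2 weeks against 804, and changed no call of the 4 genes. The labels do not say what a number shares: 8 of 18 pairs of libraries with the same number had deviations correlated above 0.1, against 4 of 36 pairs with different numbers, and 2 of 12 libraries correlated best with their own number in every other group. Of 390 ratio differences recomputed with libraries left out, 363 kept their side of the threshold.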
